A study of Sus scrofa with 36 samples.

Results

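Genes that type I interferons induce against viruses were followed in the hearts of newborn pigs. The 10 genes MX1, MX2, ISG15, ISG20, IFI6, IFI44, IFI44L, BST2, UBA7 and B2M were taken by their symbols from a table of gene counts, and each symbol matched 1 entry among 9815 genes. Hearts were collected from domestic Yorkshire pigs that were fed normally and received no other treatment, on postnatal days 1, 3, 7 and 28 (P1, P3, P7 and P28). Total RNA was sequenced in 12 libraries (batch cd), 3 at each age, which the study describes as samples from 12 animals. Each pig gave 1 age, so that ages were compared between different animals, and the labels do not name the litter. The study took RNA from whole hearts, so that muscle cells and other cells of the heart were sampled together. The study states that both sexes were among the 6 animals of each age over all its batches. The labels do not tie a library to a sex, so that the sexes of the 3 hearts of an age used here are not known. The libraries of an age carry the numbers 4, 5 and 6, written here as P1-4 and so on.

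Interferons are secreted when cells sense viral nucleic acid or other danger signals. They bind receptors that activate JAK kinases, and the signal then switches on a shared set of target genes. In most tissues these genes are also held at a low level by weak tonic signalling, and resident macrophages, endothelial cells, fibroblasts and cardiomyocytes can all express them. The products act at different steps. ISG15 is a ubiquitin-like protein that UBA7 (the activating enzyme) and UBE2L6 (the conjugating enzyme) help to attach to other proteins. MX1 and MX2 are dynamin-like GTPases that trap viral components, BST2 (tetherin) holds budding virions on the cell surface, and ISG20 is an exonuclease that degrades RNA. IFI6 is a small hydrophobic membrane protein, IFI44 and IFI44L are related interferon-induced proteins, and B2M is the light chain of class I molecules, which present peptides to T cells.

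Counts over the table summed to 8887176 (P3-5) to 14883849 (P1-4) per library. These are totals of the genes held here, which lie on chromosomes 1, 2, 6 and 13, and not the whole depth of a library. A gene was tested where 3 or more of the 12 libraries held 10 or more counts, which left 5526 genes. A gene is said to have risen or fallen where edgeR's quasi-likelihood test gave an unadjusted p of 0.05 or less and the absolute log2 fold change was over 0.5, the thresholds of the study, and the Benjamini-Hochberg adjusted p over all 5526 genes is given beside it. Levels are CPM (counts scaled to a common library size) after TMM normalization, and log2 fold changes are of the later over the earlier age with their standard error (SE). The 8 cardiomyocyte markers of the table summed to between 70200 and 93140 CPM in every library, and single markers changed with age as given below. The signal recognition particle RNA took 7.09% to 19.7% of the counts. The p-values rest on the spread between hearts of the same age, estimated in a single fit over all ages. A wide spread at P3 and P7 therefore also enters the comparison of P1 with P28.

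MX1 (ENSSSCG00000012077, 13:204843754-204868922) and MX2 (ENSSSCG00000012076, 13:204798630-204831957) are neighbours, 11796 bases apart. IFI44 (ENSSSCG00000003763, 6:134612207-134650811) and IFI44L (ENSSSCG00000027660, 6:134659633-134680050) are 8821 bases apart, and 0 genes of the table lie in either gap. Chromosome 6 also holds ISG15 (ENSSSCG00000040575, 6:63363173-63364208) and IFI6 (ENSSSCG00000034570, 6:84852792-84857982). UBA7 (ENSSSCG00000011393) spans 13:32322032-32341301, and BST2 (ENSSSCG00000033453) spans 2:60305252-60309936. On chromosome 1 stand ISG20 (ENSSSCG00000024867, 1:191183374-191195475) and B2M (ENSSSCG00000004687, 1:126835143-126981582). All 10 are annotated as protein coding. The positions are those of the gene table, whose genome build is not given in the sources used here.

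Both MX genes and both IFI44 genes are pairs of related sequence, and how reads that fit both members of a pair were counted is not given in the sources used here. The entry of B2M overlaps SPG11, and RefSeq (Sscrofa11.1) lists 2 genes with the symbol B2M where the table has 1 entry. UBA7 overlaps TRAIP, CDHR4 and a pseudogene, and BST2 overlaps CCDC194. The strand setting of the counter is not given either, so that reads of overlapping genes may not be fully separated.

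Expression of the group was lowest at P3 and P7 and highest at P28. ISG20 was near 0 before P28 and is described on its own, because it passed the filter on low counts only through P28. Among the other 9 members, 6 fell from P1 to P3 (3.64% of all genes tested), 8 rose from P3 to P28 (10.3%) and 8 rose from P7 to P28 (11.1%). In edgeR 0 of the 6 falls and 7 of the 8 rises in each interval passed adjustment over all genes. MX1, MX2 and UBA7 were not called from P1 to P3, and BST2 was not called in the comparisons with P28. The mean of UBA7 was between 43.96 and 48.7 CPM from P1 to P7 and 114.9 CPM at P28, and the mean of BST2 at P28 (63.1 CPM) was below that at P1 (72.6 CPM). In bulk RNA, a lower share of cells that express these genes and less of their RNA per cell cannot be told apart.

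**Figure D1:**
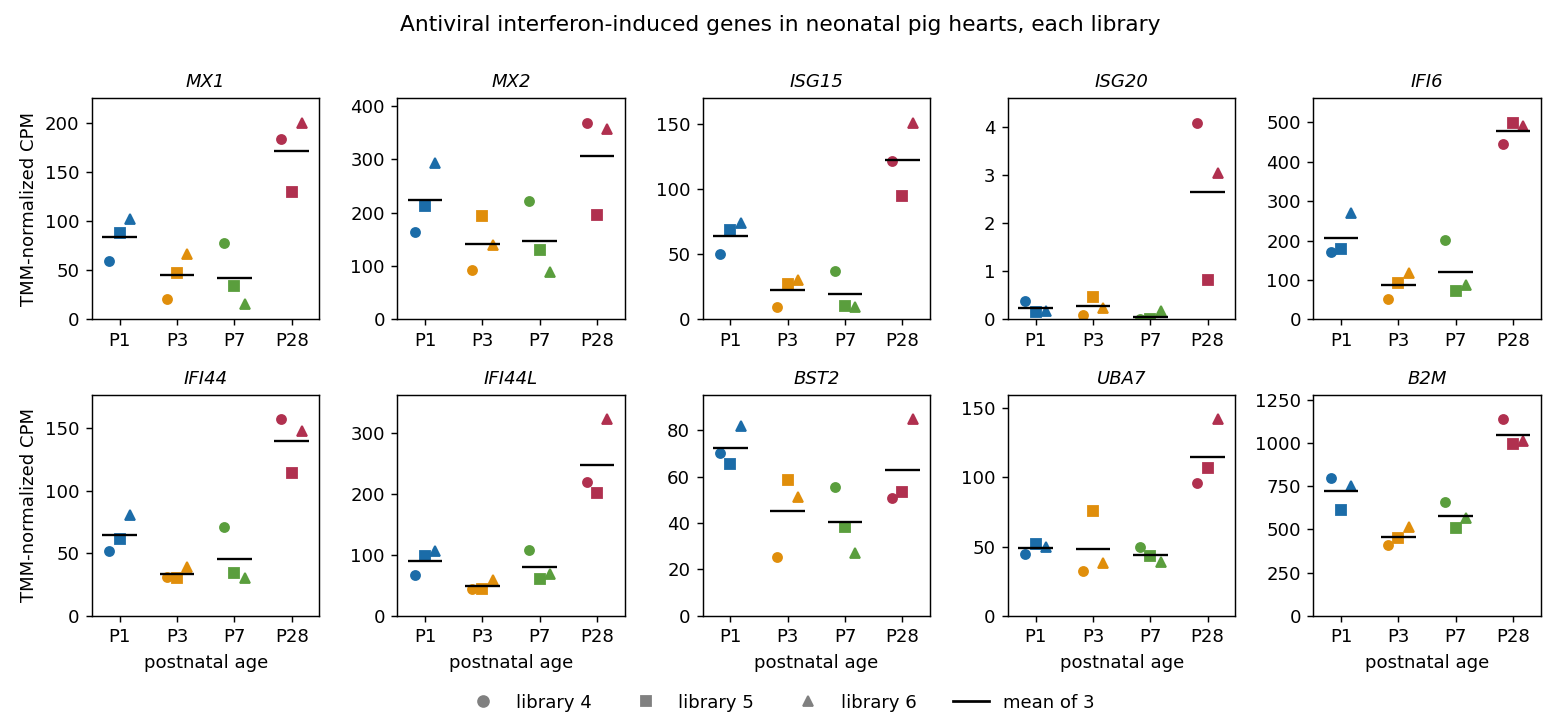
Expression of the 10 antiviral genes in each library. Points are TMM-normalized CPM (linear axis from 0, scaled per gene) of libraries 4, 5 and 6 at P1, P3, P7 and P28, and lines are means of 3. In 7 of the 9 panels other than ISG20 all 3 libraries of P28 lie above the other 9, and in MX2 and BST2 they overlap earlier ages.

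ISG15 had the steepest early fall of the 9. Its level was 49.99, 68.2 and 73.5 CPM at P1, then 9.32, 27.1 and 29.9 CPM at P3, 37.0, 10.4 and 9.73 CPM at P7, and 121.5, 94.9 and 150.7 CPM at P28. All P3 and P7 hearts were below all P1 hearts, and all P28 hearts were above them. ISG15 fell from P1 to P3 (log2 fold change -1.53, SE 0.49, edgeR adjusted p = 0.22) and stood lower at P7 than at P1 (-1.76, SE 0.50, edgeR adjusted p = 0.0792). It then rose 6.47-fold from P7 to P28 (log2 fold change 2.69, SE 0.51, edgeR adjusted p = 0.0035). Without P7-4 the rise of ISG15 was 12.2-fold (3.60) and its difference between P1 and P7 was -2.67 (edgeR adjusted p = 0.0143), and it was then called lower at P7 than at P3 (-1.14, adjusted p = 0.234). Between P1 and P28 the difference of 0.94 (SE 0.48) missed the call (edgeR adjusted p = 0.201), although the groups did not overlap. It was called with limma voom, without the filter on low counts, with only the 2 ages compared (adjusted p = 0.0184), and without P3-4 or P7-4.

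UBA7, which activates ISG15 for conjugation, was not called between P1 and P3 or P7. It measured 44.7, 51.8 and 49.7 CPM at P1, 32.0, 75.7 and 38.0 CPM at P3, and 49.8, 43.4 and 38.7 CPM at P7. P3-5 stood apart, and the other 8 hearts of these ages lay between 32.0 and 51.8 CPM. P3-4 and P3-6 lay below the 3 hearts of P1. The log2 fold change from P1 to P3 was -0.01 (SE 0.27, edgeR adjusted p = 0.993), and without P3-5 it was -0.47 (adjusted p = 0.372), which was not called either. The difference between UBA7 and ISG15 was not tested. At P28 the values were 96.3, 106.4 and 141.9 CPM, above every earlier heart. UBA7 rose 2.61-fold from P7 to P28 (log2 fold change 1.39, SE 0.27, edgeR adjusted p = 0.00408) and 2.36-fold from P1 to P28 (1.24, SE 0.27, adjusted p = 0.00941). Of the 3 entries that overlap UBA7, 2 rose with it and 1 fell. TRAIP, a ubiquitin ligase of the DNA damage response, was at 46.4 to 53.0 CPM at P1 and 78.3 to 116 CPM at P28 (log2 fold change 0.90, edgeR adjusted p = 0.012). CDHR4 changed by 1.29 (edgeR adjusted p = 0.021) over the same interval and was also at its highest level before P28 in P3-5, at 20.6 CPM. The pseudogene ENSSSCG00000049797 fell from P7 to P28 (-0.74, edgeR adjusted p = 0.017) and from P3 to P28 (-0.69, adjusted p = 0.0259). The part of these overlapping entries in the counts of UBA7 was not tested.

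The third gene of this route, the conjugating enzyme UBE2L6, is not one of the 10. Over the 12 libraries its log2 CPM had the highest correlation with the mean of the 9 members among all genes outside them (Pearson r = 0.978). Its mean was 54.4 ± 7.47 CPM at P1, 32.4 ± 11.6 at P3, 31.4 ± 14.5 at P7 and 79.0 ± 15.7 at P28 (SD, n = 3). UBE2L6 fell from P1 to P3 (log2 fold change -0.75, SE 0.32, edgeR adjusted p = 0.297) and rose from P7 to P28 (1.33, SE 0.32, adjusted p = 0.0135). The ligase and the proteases of this route were not analysed here.

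MX1 spread widely among the hearts of P3 and P7. Its values were 59.9, 88.2 and 102.1 CPM at P1, 20.7, 46.9 and 66.4 CPM at P3, 78.2, 33.6 and 15.1 CPM at P7, and 183.5, 130.3 and 200.4 CPM at P28. P3-6 and P7-4 lay inside the range of P1, and the hearts of P28 lay above all others. The log2 fold change from P1 to P3 was -0.90 (SE 0.50, edgeR adjusted p = 0.397), which was not called. It was called without the filter, with only the 2 ages compared, and without P3-6 (-1.29), P7-4 (-0.90) or P7-6 (-0.89). MX1 rose 4.06-fold from P7 to P28 (log2 fold change 2.02, SE 0.51, edgeR adjusted p = 0.0159) and 3.83-fold from P3 to P28 (1.94, SE 0.51, adjusted p = 0.0217). Without P7-4 the rise of MX1 from P7 was 7.00-fold (2.81), and without P7-5 it did not pass adjustment (1.86, edgeR adjusted p = 0.073). The rise from P3 did not pass without P3-5, P28-4 or P28-6 (edgeR adjusted p = 0.051 to 0.0614). From P1 to P28 it differed by 1.04 (SE 0.49, edgeR adjusted p = 0.173) and was not called, again without overlap between the groups. It was called with limma voom, without the filter, with only the 2 ages compared (adjusted p = 0.0187), and without P3-4, P7-4 or P7-6.

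MX2 had a smaller range. It measured 164.6, 212 and 293.2 CPM at P1, 92.5, 192.9 and 138.7 CPM at P3, 222.6, 130.8 and 88.8 CPM at P7, and 368.6, 195.3 and 357.3 CPM at P28. P28-5 stood below P7-4 and within the range of P1. MX2 rose from P3 to P28 (log2 fold change 1.12, SE 0.36, edgeR adjusted p = 0.0519) and from P7 to P28 (1.06, SE 0.36, adjusted p = 0.0583). The rise from P7 was not called without P7-6. Neither rise passed adjustment over all genes in edgeR. With DESeq2 the adjusted p-values were 0.0127 and 0.0189, and with limma voom the rise of MX2 from P7 had an adjusted p = 0.046. The fall of MX2 to P3 was called without the filter (-0.67) and without P3-5 (-0.95). The difference between P1 and P28 (0.46, SE 0.36, edgeR adjusted p = 0.41) was not called.

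IFI6 was the most evenly expressed member at P28. It was at 170.8, 179.1 and 271.2 CPM at P1, 52.6, 91.9 and 116.7 CPM at P3, 201.4, 72.7 and 87.5 CPM at P7, and 445.3, 499.2 and 491.3 CPM at P28. The coefficient of variation was 58.5% at P7, where P7-4 stood at P1 levels, and 6.08% at P28. IFI6 fell from P1 to P3 (log2 fold change -1.25, SE 0.36, edgeR adjusted p = 0.187) and was lower at P7 than at P1 (-0.78, SE 0.36, adjusted p = 0.304). Without P7-4 the rise of IFI6 from P7 to P28 went from 1.99 to 2.58. The difference between P1 and P7 ranged from -1.37 to -0.50 under the alternatives and was not called without P1-6, P3-5, P7-5, P7-6 or any library of P28. This call was also lost with total counts, with only the 2 ages compared and with the library number as a block. IFI6 rose 5.49-fold from P3 to P28 (2.46, SE 0.37, edgeR adjusted p = 0.00159) and ended above P1 (1.21, SE 0.36, adjusted p = 0.0388). Without any one library of P1 or P28 this last difference of IFI6 was still called, at 1.09 to 1.44, but its edgeR adjusted p was 0.0505 to 0.123.

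IFI44 and IFI44L both fell from P1 to P3 and were highest at P28. IFI44 measured 52.1, 60.97 and 80.9 CPM at P1, 30.8, 30.4 and 39.3 CPM at P3, 70.6, 34.0 and 30.5 CPM at P7, and 156.9, 114.3 and 147.7 CPM at P28. IFI44L measured 67.3, 98.3 and 106.2 CPM at P1, 44.0, 44.7 and 57.96 CPM at P3, 108.6, 60.9 and 68.2 CPM at P7, and 219.6, 202 and 321.9 CPM at P28. In both genes the 3 hearts of P3 lay below all hearts of P1, and the 3 hearts of P28 above all others. The fall to P3 was -0.95 for IFI44 (SE 0.29, edgeR adjusted p = 0.196) and -0.89 for IFI44L (SE 0.25, adjusted p = 0.181). IFI44L was the 1 member that rose from P3 to P7 (0.69, SE 0.25, edgeR adjusted p = 0.168), a call lost without P3-4, P3-5 or P7-4. The difference of IFI44 was 0.42 (SE 0.29, adjusted p = 0.446). The difference between IFI44 and IFI44L was not tested in any interval. From P7 to P28 IFI44 rose 3.11-fold (log2 fold change 1.63, SE 0.29, edgeR adjusted p = 0.00248) and IFI44L 3.13-fold (1.65, SE 0.25, adjusted p = 0.00137). Both also ended above P1, by 1.11 (SE 0.28, adjusted p = 0.0205) and by 1.45 (SE 0.25, adjusted p = 0.0029). For IFI44 this last difference did not pass adjustment without P1-4, P1-5, P28-4 or P28-6 (edgeR adjusted p = 0.0626 to 0.0724).

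BST2 fell early, and in edgeR its later change was not called. Its levels were 70.1, 65.7 and 81.9 CPM at P1, 25.3, 58.7 and 51.3 CPM at P3, 55.5, 38.1 and 27.3 CPM at P7, and 50.9, 53.4 and 84.8 CPM at P28. All hearts of P3 and P7 lay below those of P1, and at P28 only P28-6 was above the range of P1. BST2 fell from P1 to P3 (log2 fold change -0.69, SE 0.32, edgeR adjusted p = 0.325) and was lower at P7 than at P1 (-0.85, SE 0.32, adjusted p = 0.191). Under the alternatives the fall to P3 ranged from -0.92 to -0.40. It was lost without P1-4, P1-5, P1-6, P3-4, P3-6, P7-5, P28-4 or P28-5, with total counts, and with the library number as a block. The difference at P7 (-1.15 to -0.63) was lost without P1-6, P7-5 or P7-6. The difference of BST2 between P7 and P28 was 0.65 (SE 0.32, edgeR adjusted p = 0.174). It was called with DESeq2 (0.64), without the filter (0.64), and without P3-4 (0.65), P7-4 (0.94) or P28-4 (0.78), and 0 of these had an adjusted p under 0.05. The difference of BST2 between P1 and P28 was -0.20 (SE 0.31, edgeR adjusted p = 0.703). CCDC194, which overlaps BST2, had its lowest value of 3.32 CPM in P3-4 and its highest of 20.9 CPM in P28-6, the libraries in which BST2 was also lowest and highest.

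B2M had the smallest SE of the 9 members. It stood at 795.2, 613.3 and 748.5 CPM at P1, 407, 449.5 and 510.7 CPM at P3, 658.7, 505.6 and 563.7 CPM at P7, and 1136, 995.3 and 1009 CPM at P28. P3 lay wholly below P1, and P28 wholly above every other age. B2M fell 1.58-fold from P1 to P3 (log2 fold change -0.66, SE 0.14, edgeR adjusted p = 0.0972), which was the smallest adjusted p of a member in that comparison. It rose 2.30-fold from P3 to P28 (1.20, SE 0.14, adjusted p = 0.000593) and 1.46-fold from P1 to P28 (0.54, SE 0.14, adjusted p = 0.0228). The last of these was not called without P1-5 or P28-4 (0.43 to 0.62 under the alternatives), and without P1-6, P28-5 or P28-6 it was called with an edgeR adjusted p of 0.0505 to 0.0687. SPG11, which overlaps the entry, stayed between 176.7 and 230.4 CPM in all 12 libraries and differed by -0.25 on the log2 scale from P7 to P28 (edgeR adjusted p = 0.144).

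ISG20 was almost absent before P28. The libraries held 5, 2 and 2 counts at P1, 1, 4 and 3 counts at P3, 0, 0 and 2 counts at P7, and 51, 10 and 31 counts at P28. Each library of P28 had more counts than any earlier one, and P28-5 had the fewest of them. The summed counts of P28, set against the library sizes, were 11.6 times those of P1 and 10.6 times those of P3. A gene that entered the table of tests only through P28 had to differ there, so that ISG20 is left out of the counts of members and no test of it is given. Its changes among P1, P3 and P7 rest on sums of 9, 8 and 2 counts.

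Read per kilobase of the length given in the table, the order of levels differed from that in CPM. At P28 IFI6 was highest (494.4 ± 30.1 CPM per kb, SD, n = 3), followed by ISG15 (193 ± 44.0) and B2M (130.3 ± 9.64). IFI44L (66.7 ± 17.4), MX1 (63.3 ± 13.5), MX2 (43.3 ± 13.7) and IFI44 (41.8 ± 6.70) formed a middle group. BST2 (25.2 ± 7.54), UBA7 (16.2 ± 3.39) and ISG20 (1.02 ± 0.64) were lowest. All were measured in the same hearts, and differences between genes in this order were not tested. B2M is listed with a length of 8037 bases, and its level per length depends on that figure.

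The group was then compared between ages. From P1 to P3, 6 of the 9 members fell and 0 rose, and their median log2 fold change was -0.89 against 0.01 over all genes tested. Of all 5526 genes, 3.64% were called lower in this comparison. By edgeR 0 of the 6 passed adjustment, and 0.0362% of all genes did so in this direction. DESeq2 gave an adjusted p under 0.05 for 3 of them (IFI6, IFI44L and B2M) and limma voom for 0, and 6 members had an unadjusted p under 0.05 by each tool. Of all 5526 genes, 122 passed adjustment with DESeq2 and 2 with limma voom, in either direction. From P1 to P7, 3 members fell (ISG15, IFI6 and BST2) against a background of 4.07%, and by edgeR 0 passed adjustment against a background of 0.543%. ISG15 passed adjustment with DESeq2 and with limma voom, where 364 and 199 of all 5526 genes passed in either direction. In edgeR 4 members had an unadjusted p under 0.05. The median of the 9 was -0.60. The log2 fold change of B2M, -0.32 (SE 0.14, edgeR adjusted p = 0.29), was short of the limit of 0.5. From P3 to P7 1 member, IFI44L, rose, and 0 passed adjustment by edgeR, DESeq2 or limma voom, against 6.51% of all genes called higher and 1.61% after adjustment. An unadjusted p under 0.05 was given to 2 members, IFI44L and B2M.

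The comparisons with P28 moved the other way. From P3 to P28, 8 of the 9 members rose (background 10.3%) and 7 passed adjustment (background 7.98%), with a median log2 fold change of 1.94 against -0.04 over all genes. From P7 to P28, 8 rose (background 11.1%) and 7 passed adjustment (background 8.34%), with a median of 1.63. From P1 to P28, 5 rose, namely IFI6, IFI44, IFI44L, UBA7 and B2M (background 11%), and all 5 passed adjustment (background 7.38%), of which IFI44L and UBA7 did so without any 1 library as well. The median there was 1.04, and MX1, MX2, ISG15 and BST2 were not called by edgeR. With limma voom MX1 and ISG15 were called as well, which made 7. The 6 comparisons reuse the same libraries, so that they are not independent of each other.

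**Figure D2:**
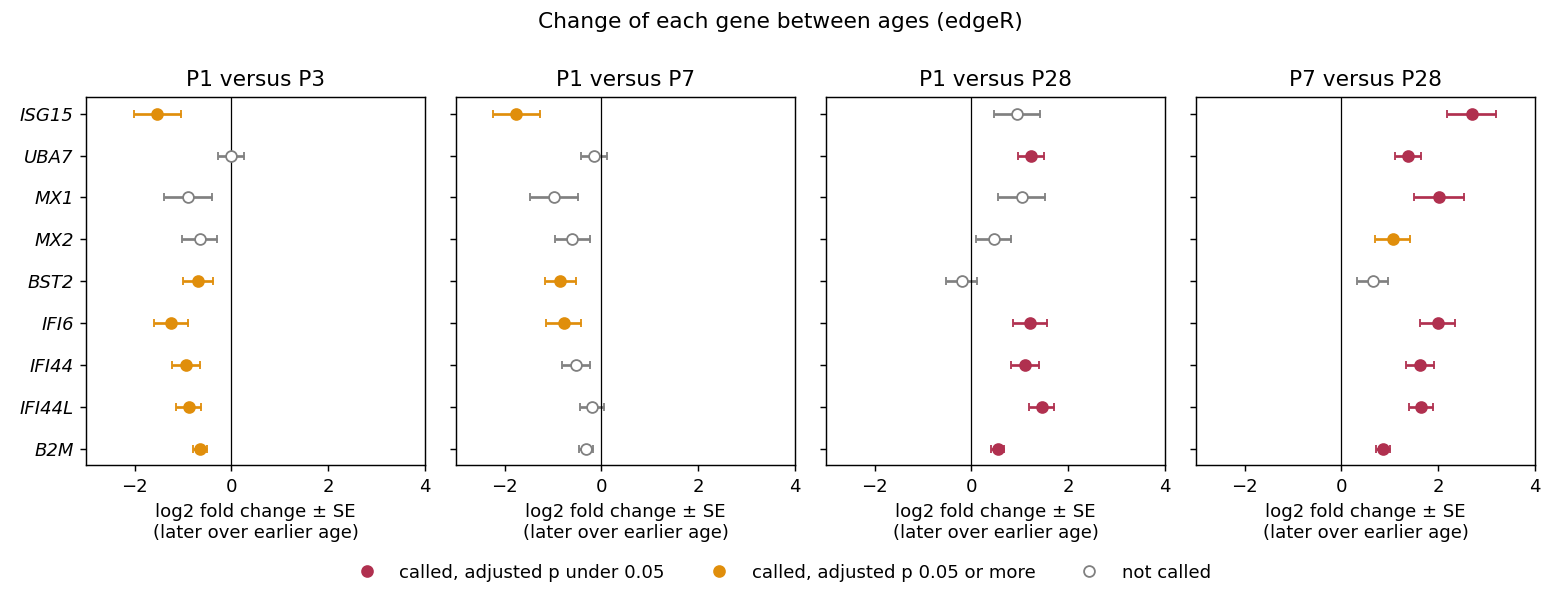
Log2 fold change of 9 members, ISG20 left out (later over earlier age, points) with its SE (bars) from edgeR in 4 comparisons. Red points were called with an adjusted p under 0.05, orange points were called without passing adjustment, and open grey points were not called. All called changes to P3 and P7 are orange and to the left of 0, and the called changes to P28 lie to the right of 0.

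P1 against P3 and P7 against P28 share no library. In these 2 comparisons 38 genes were called lower in the first and higher in the second, which is 0.688% of all genes tested. ISG15, IFI6, IFI44, IFI44L and B2M were 5 of the 38. Another 5 of the 38 belonged to the interferon pathway list described below, namely PARP14, PARP9, DTX3L, PLSCR1 and UBE2L6. By sign alone 9 of 9 members were lower at P3 and higher at P28, where 24.3% of all genes had these signs. For UBA7 the log2 fold change to P3 was -0.01 (SE 0.27), so that its sign there means little. This pair of comparisons was chosen after the values were seen. Outside both lists, the largest combined changes after those of NLRP4, NLRP5, NLRP13 and an unnamed gene were in NR4A3, an immediate early nuclear receptor (log2 fold changes -1.55 and 4.32), and in the inter-alpha-trypsin inhibitor genes ITIH1 (-1.10 and 4.28) and ITIH3 (-1.03 and 4.23).

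**Figure D3:**
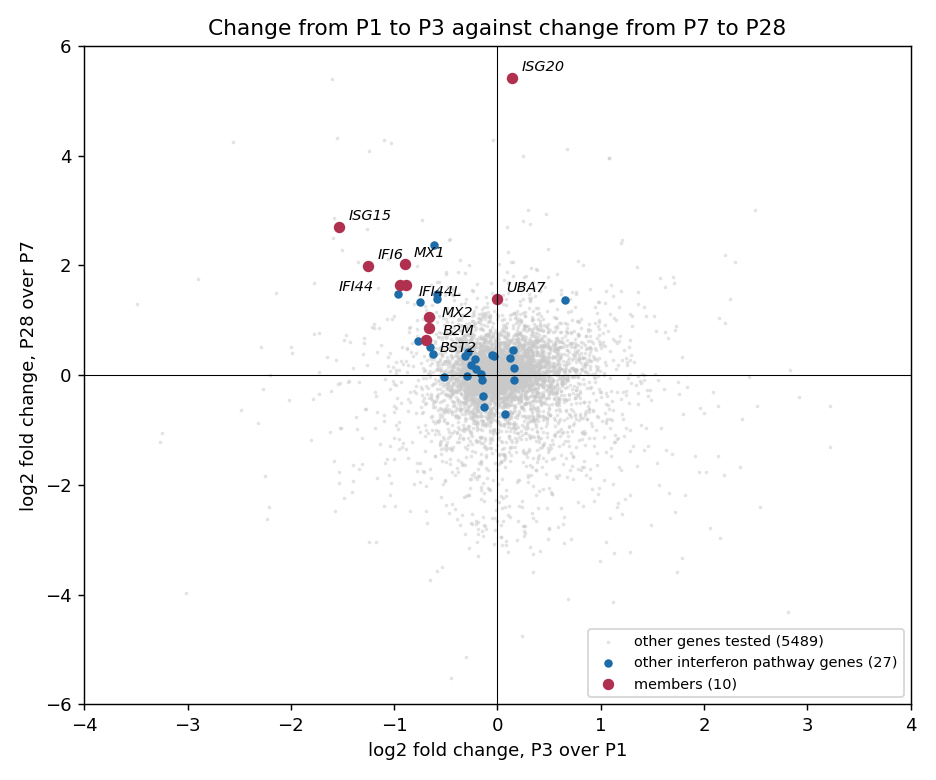
Log2 fold change of P3 over P1 (x axis) against that of P28 over P7 (y axis) for every gene tested. Red points are the 10 members, blue points 27 other genes of the interferon pathway and grey points the remaining genes, and 7 points lie outside the drawn range. The members other than ISG20 and UBA7 lie in the upper left field, lower at P3 and higher at P28, with UBA7 on the vertical line and ISG20 just right of it.

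Hearts of the same age differed in these genes together. Within P7, library P7-4 was the highest in 9 of 9 members, with a median deviation of 0.70 on the log2 scale above the mean of its age. Within P3, P3-4 was the lowest in 8 of 9 members, with a median deviation of -0.55. P3-4 was also the lowest heart of P3 in the summed markers of fibroblasts (2419 CPM against 3659 and 4874 CPM), endothelium (592.9 against 727.1 and 767.5 CPM) and cardiomyocytes (78030 against 86760 and 90360 CPM). It was the highest in the sum of the 2 erythroid markers (1267 against 574 and 961.7 CPM). That sum is nearly all TFRC, whose mean at P3 was 927.2 CPM against 7.03 CPM for EPB42. The part of these differences in the low values of P3-4 was not tested. P1-6 was the highest in 7 and P1-4 the lowest in 7 members. At P28, P28-6 was the highest in 5 and P28-5 the lowest in 6 members. The median coefficient of variation of the 9 members was 22.7% at P1, 37.1% at P3, 46.4% at P7 and 21.3% at P28. Over all genes tested it was 12.8%, 23.9%, 10.8% and 13.3%, so that P7, the age with the smallest spread over all genes, had the widest spread in these genes. ISG15 at P7 was the extreme (81.8%), and UBA7 at P1 (7.45%) and IFI6 at P28 (6.08%) were among the least variable.

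P7-4 stood within the range of P1 in 6 of the 9 members, above it in 1 (IFI44L) and below it in 2 (ISG15 and BST2). In contrast P7-5 was below the range of P1 in 9 of 9 members and P7-6 in 8 of 9. Without P7-4, 6 members were called lower at P7 than at P1 in place of 3, and without P1-6, P7-5 or P7-6 1 was. The shares of all genes called in these fits are not given here, so that these counts describe the members alone. The rise of IFI44L from P3 to P7 was lost without P7-4, without P3-4 and without P3-5, and without P7-4 the 1 member called in that comparison was lower at P7. P7-4 had 12.25% of its counts in the signal recognition particle RNA, between the 7.09% of P7-5 and the 19.7% of P7-6. Its leukocyte markers (given below) summed to 1056 CPM, between the 826.1 and 1137 CPM of the other 2 hearts.

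**Figure D4:**
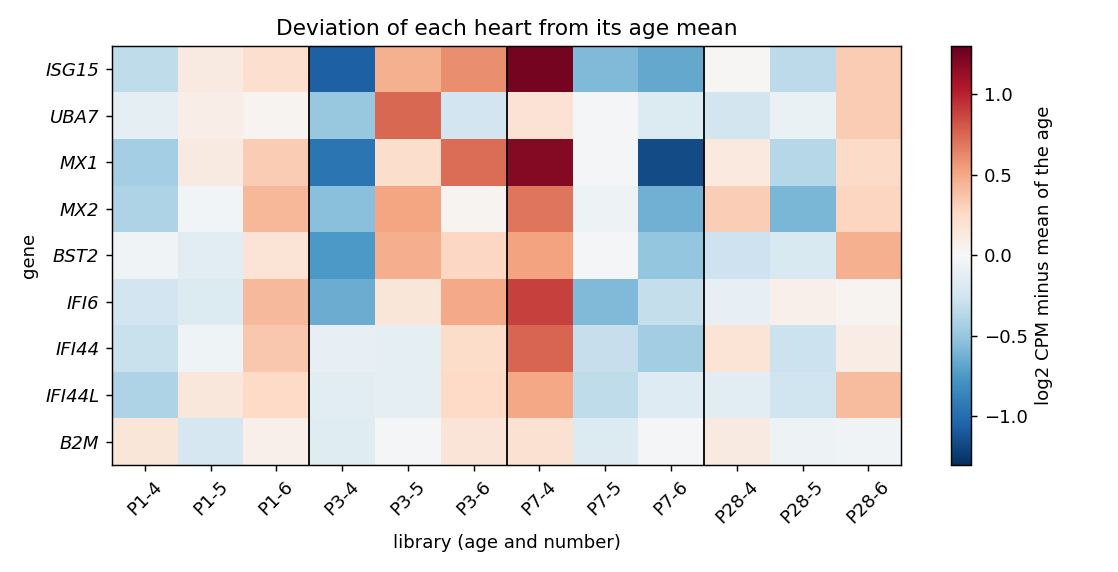
Deviation of each heart from the mean of its age, in log2 CPM, for 9 members (rows) and 12 libraries (columns, separated by age). Red is above and blue below the mean of the 3 hearts, and the 3 values of an age sum to 0 by construction. The column of P7-4 is red in all 9 rows, and the column of P3-4 is blue in all 9.

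Across the 12 libraries the 36 pairs among the 9 members had a median Pearson correlation of log2 CPM of 0.83, with a range from 0.50 to 0.97. After the mean of each age was taken out, the median was 0.70, with a range from -0.01 to 0.93, and 35 of 36 pairs were above 0. The points of these correlations share their libraries, their depth and their normalization. With the mean of the 9 members, itself included, IFI6 (r = 0.976), ISG15 (0.972) and MX1 (0.964) correlated most and BST2 (0.766) least, and UBA7 stood at 0.85. After UBE2L6, the genes outside the members whose levels were most like their mean over the 12 libraries were PARP14 (r = 0.962), PARP9 (0.936), DTX3L (0.929), ENSSSCG00000034802 (0.928), UNC93B1 (0.908), PLSCR1 (0.894) and NCEH1 (0.891). UNC93B1 carries nucleic acid-sensing Toll-like receptors to endosomes. NCEH1, a neutral cholesterol ester hydrolase, was at 1280 ± 140 CPM at P1, 921 ± 69.4 at P3, 972 ± 147 at P7 and 1650 ± 112 at P28 (SD, n = 3).

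Other genes of the interferon route were taken from a list of 142 symbols sorted by role, of which 31 were among the genes held here and 27 were tested. The symbols without an entry were not analysed here. From P1 to P3, 8 of the 27 fell and 0 rose, from P3 to P28 11 rose and 1 fell, from P7 to P28 7 rose and 2 fell, and from P1 to P28 6 rose and 0 fell. Of all genes tested, 3.64% were called lower and 6.95% higher from P1 to P3, 10.3% higher and 13.7% lower from P3 to P28, 11.1% and 14% from P7 to P28, and 11% and 12.1% from P1 to P28. After adjustment by edgeR the counts of the list were 0 from P1 to P3, 9 higher and 1 lower from P3 to P28, 7 and 1 from P7 to P28, and 6 and 1 from P1 to P28. The shares of all genes after adjustment were 0.0181% higher and 0.0362% lower from P1 to P3, and 7.98% and 8.51% from P3 to P28. They were 8.34% and 10.5% from P7 to P28, and 7.38% and 7.93% from P1 to P28. The medians over the 27 genes were -0.21 from P1 to P3 and 0.35 from P7 to P28. The remaining 2 comparisons called 1 higher and 3 lower (P1 to P7) and 3 higher and 0 lower (P3 to P7), with 0 after adjustment, where 7.65% and 4.07%, and 6.51% and 6.46%, of all genes were called higher and lower. Of the 8 that fell from P1 to P3, 6 were among the 8 induced antiviral genes of the list, 1 was UBE2L6 and 1 was the receptor IFNGR1.

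Of 8 listed ligands 3 were in the table, and these were at or near 0. IFNB1 had 0 counts in all 12 libraries, and IFNA1 and IFNE did not exceed 0.0824 and 0.133 CPM in any library. Of the receptor chains, IFNLR1 (the specific chain for lambda interferons) was at 0.55 to 1.57 CPM in the 9 hearts of P1 to P7 and at 4.97, 3.46 and 5.42 CPM at P28. It rose 5.18-fold from P7 to P28 (log2 fold change 2.37, SE 0.38, edgeR adjusted p = 0.00147). IFNAR1, a chain of the type I receptor, went the opposite way to most members and fell from P7 (248.1, 256.7 and 243.5 CPM) to P28 (186.8, 149.7 and 160.9 CPM), by 0.59 on the log2 scale (SE 0.12, adjusted p = 0.00483). The kinases JAK1 and JAK2 were called in 0 of the 6 comparisons. IRF3, which induces interferon genes after viral sensing, was lower at P28 than at P3 (-0.53, SE 0.15, edgeR adjusted p = 0.0297), and CGAS, a DNA sensor, was higher at P28 than at P1 (0.67, SE 0.20, adjusted p = 0.0435).

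Among the induced genes, PARP14 and PARP9, which transfer ADP-ribose, and DTX3L, the ubiquitin ligase that partners PARP9, lie near each other on chromosome 13. From P7 to P28 they rose by 1.48 (SE 0.29, edgeR adjusted p = 0.00403), 1.48 (SE 0.22, adjusted p = 0.00105) and 1.40 (SE 0.26, adjusted p = 0.003). PLSCR1, a phospholipid scramblase, was at 52.7, 48.7 and 52.8 CPM at P1, fell to 28.98, 26.7 and 34.8 CPM at P3 (-0.77, SE 0.17, edgeR adjusted p = 0.104) and was at 60.9, 58.3 and 60.4 CPM at P28. TRIM14, an adaptor of antiviral signalling, rose from P3 to P28 (1.14, SE 0.27, edgeR adjusted p = 0.0129). NLRC5, the transactivator of class I genes that include B2M, was not called between P1, P3 and P7. It was at 40.96, 54.9 and 58.2 CPM at P1, 40.9, 145.9 and 55.6 CPM at P3, 52.5, 58.5 and 39.6 CPM at P7 and 130.4, 107.6 and 150.3 CPM at P28, and P3-5 stood apart here as it did in UBA7. NLRC5 rose from P7 to P28 (1.36, SE 0.37, edgeR adjusted p = 0.0226). PIAS1, listed among the negative regulators, rose 1.51-fold from P3 to P28 (0.59, SE 0.14, adjusted p = 0.0148).

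Leukocyte markers were examined because these cells express interferon-induced genes strongly. Of 33 listed markers 11 were in the table, none at 0, and the general marker PTPRC was not analysed here. They summed to 1177 to 1375 CPM at P1, 1127 to 1167 CPM at P3, 826.1 to 1137 CPM at P7 and 1330 to 1861 CPM at P28. CD79A, a B cell marker whose mean lay between 432.1 and 627.5 CPM, gave much of this sum and was called in 0 comparisons with P28. Without it the sums were 540.7 to 748.4, 527.6 to 643.1, 474.7 to 626.4 and 814.9 to 1297 CPM. From P1 to P3, 0 of the 11 markers were called (3.64% of all genes were lower and 6.95% higher), and from P1 to P7 2 were lower (4.07% of all genes). From P7 to P28 6 of the 11 rose and 4 of them passed adjustment (11.1% and 8.34% of all genes). From P3 to P28 6 rose, 4 of them after adjustment (10.3% and 7.98% of all genes), and FGR fell (-0.59, edgeR adjusted p = 0.146). From P1 to P28 5 rose, 2 of them after adjustment (11% and 7.38% of all genes). From P7 to P28 C1QA, C1QB and C1QC, which resident macrophages make, rose by 1.10, 0.96 and 1.01 (edgeR adjusted p = 0.0053, 0.0131 and 0.00711), and TYROBP by 0.97 (adjusted p = 0.0157). The part of these cells in the higher level of the members at P28 was not tested. The 3 fibroblast markers summed to 2419 to 4994 CPM before P28 and 1335 to 1675 CPM at P28, and the 4 endothelial markers to 592.9 to 828.7 CPM before P28 and 625.1 to 679.4 CPM at P28. Within the endothelial sum TEK rose from P3 to P28 (0.83, edgeR adjusted p = 0.0043), while TIE1 fell (-0.81, adjusted p = 0.0151), and ERG fell from P7 to P28 (-0.50, adjusted p = 0.0358). Of the 8 cardiomyocyte markers 4 rose and 1 fell from P7 to P28, and 3 of the rises passed adjustment by edgeR. TNNI3, MYBPC3 and TNNC1, proteins of the sarcomere, rose by 0.71, 0.69 and 0.54 (edgeR adjusted p = 0.00403, 0.00424 and 0.0338), NPPB, a natriuretic peptide, rose by 2.86 (adjusted p = 0.077), and ACTC1, cardiac actin, fell by 0.50 (adjusted p = 0.06). TNNI3 (-0.52, edgeR adjusted p = 0.0674) and NPPB (-3.10, adjusted p = 0.151) were also lower at P7 than at P1, and from P1 to P3 0 of the 8 were called. The erythroid list held EPB42 and TFRC. EPB42, a protein of the red cell membrane skeleton, had means of 1.72, 7.03, 4.06 and 1.20 CPM at P1, P3, P7 and P28, and it rose from P1 to P3 (2.02, edgeR adjusted p = 0.0866) and fell from P7 to P28 (-1.77, adjusted p = 0.0142). TFRC, the transferrin receptor, had means of 2293, 927.2, 1220 and 1587 CPM at P1, P3, P7 and P28. It fell from P1 to P3 (-1.31, edgeR adjusted p = 0.0687) and rose from P3 to P28 (0.77, adjusted p = 0.0454). PDGFRB, the 1 pericyte marker, was higher at P3 than at P1 (0.87, edgeR adjusted p = 0.245) and fell from P3 to P28 (-0.98, adjusted p = 0.0451). The part of these cell types in the course of the members was not tested.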

How the data were processed

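The authors sequenced total RNA of 12 pig hearts after removal of ribosomal RNA (batch cd, 3 hearts at each of P1, P3, P7 and P28) and deposited raw read counts per gene without normalization. Their processing notes name STAR and, for circRNAs, the build Sscrofa10.2, and the gene counter, its strand setting and the build of the gene table are not given in the sources used here. Columns were placed in an age by their names, which show the age and a number from 4 to 6. The table as held here ends within a row, which was left out, and covers chromosomes 1, 2, 6 and 13. The list of 142 interferon pathway genes was therefore met by 31. The deposited gene length was used for CPM per kilobase. Back-splice counts and miRNA counts were not used here.

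Genes for which 3 or more of the 12 libraries held 10 or more counts (5526 of 9815) were fitted with edgeR 4.0.16 in R 4.3.3, with TMM normalization and all 4 ages in one quasi-likelihood fit (common dispersion 0.0446). The SE is the log2 fold change divided by the square root of the F statistic. Adjusted p-values are Benjamini-Hochberg values over all genes tested. CPM were taken from these normalized library sizes, and correlations used log2 CPM with a prior count of 2. The fit was tested on counts simulated with known fold changes. Alternatives were other size factors, total counts, protein-coding genes alone, no filter, DESeq2 1.42.0, voom of limma 3.58.1, only the 2 ages compared, the replicate number as a block, adjusted p-values and leaving out each library in turn.

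Named are the 10 members, at most 12 genes of the interferon pathway list with the smallest adjusted p under 0.05 among those called, and the 8 genes most like the mean of the 9 members. Others named were chosen after their values were seen. The members and lists were chosen with earlier results of these data known.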

Additional observations from a re-analysis of the deposited data

How the results depend on the processing

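The 31 calls of single members, ISG20 left out, gave 651 values under the alternatives, of which 610 stayed called in the same direction, 41 were no longer called and 0 turned round. BST2 from P1 to P3 and IFI6 from P1 to P7 were each lost in 11 of 21 alternatives. With an adjusted p of edgeR under 0.05 as the call, 0 members were called from P1 to P3, 0 from P1 to P7 and 0 from P3 to P7, and 0 interferon pathway genes in each of these comparisons. DESeq2 gave 3, 1 and 0 members an adjusted p under 0.05 in these comparisons, and limma voom 0, 1 and 0. Of all 5526 genes tested, 122, 364 and 364 passed with DESeq2 and 2, 199 and 142 with limma voom, in either direction. With limma voom 5 members were called from P1 to P7, and with total counts 2 pathway genes. Leaving out single libraries gave 1 to 6 members from P1 to P7, 0 to 2 from P3 to P7, 5 to 7 from P1 to P3, 4 to 7 from P1 to P28, 8 in all cases from P3 to P28 and 7 to 9 from P7 to P28. The pathway list gave 4 to 8 genes from P1 to P3 and 2 to 7 from P1 to P7 in this way, 4 without P1-5 and 7 without P7-4. The 5 members that fell by P3 and rose after P7 became 5 to 7 when single libraries were left out and 8 without the filter on low counts. The cause of these shifts was not tested. For the unadjusted calls, the shares of all genes called under the alternatives are not given here. Adding ISG20 to the counts, an alternative chosen after the data were seen, left the comparisons among P1, P3 and P7 as they were.

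With the library number as a replicate block, 5, 2, 5, 1, 8 and 8 members were called from P1 to P3, P1 to P7, P1 to P28, P3 to P7, P3 to P28 and P7 to P28. The block moved no count by more than 1.5 times. The numbers name different pigs. Deviations of the 18 pairs of same-numbered libraries correlated between -0.186 and 0.331, with 5 pairs over 0.1. These 5 include all same-numbered pairs of P1 with P28 (0.331, 0.138 and 0.161 for numbers 4, 5 and 6). Pairs of different numbers were not examined, so that a link between same-numbered hearts was not tested. With 3 hearts an age, calls between P1, P3 and P7 rest on few animals, and the counts held here limit ISG20 most.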
